A study of Mus musculus with 24 samples.

Results

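The genes described here are 10 that act in the G1 phase of the cell cycle and at entry into S phase: 4 cyclin genes (Ccnd2, Ccnd3, Ccne1 and Ccne2), 3 kinase genes (Cdk4, Cdk6 and Cdk2) and 3 inhibitor genes (Cdkn1a, Cdkn1b and Cdkn2c). They were chosen by name and role from the 22009 named genes of the deposited table. All 10 averaged at least 1 RPKM, a level in reads that is divided by transcript length and by the mapped reads of the library, in the 20 time-course libraries, and so all 10 were among the 10897 genes tested there. The study sequenced total RNA from mouse CD4 T cells in 24 libraries, as bulk samples. The cells were taken from the spleens of adult wildtype C57BL/6 mice by magnetic beads that removed other cells, with the cells of several mice pooled.

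The resting group was 2 libraries of unstimulated purified CD4 cells. The labels do not call these cells naive, whereas the methods of the study use that word for the cells put into culture. Cultures of the Th0 group received anti-CD3 and anti-CD28. Those of the Th1 group also received IL-12 together with anti-IL-4, and those of the Th2 group received IL-4 together with anti-IFNG and anti-IL-12 in addition to the antibodies of Th0. Each of these 3 conditions was sequenced once at 4, 8, 12, 16, 20 and 24 h, which gave 18 culture libraries. In 4 more libraries, stimulation for 16 h was followed by 0, 1, 2 or 4 h of actinomycin, a drug that blocks transcription. Their labels do not give a skewing condition. The time course had between 17512385 and 33017133 mapped reads a library, so that 1 RPKM of a 2 kb transcript stood for 35.0 to 66.0 reads. The resting libraries carry another number in their titles than the cultures, whose meaning the labels do not give, and what it marks cannot be told apart from activation.

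Cyclins D2 and D3 bind the kinases Cdk4 and Cdk6 early in G1, and cyclins E1 and E2 bind Cdk2 near the start of DNA replication; both kinds of complex phosphorylate the retinoblastoma protein and free E2F factors. Cdkn2c encodes p18, which binds Cdk4 and Cdk6, while Cdkn1b (p27) and Cdkn1a (p21) bind cyclin complexes of either kind. Resting T cells are known for high p27, and signals from the antigen receptor, CD28 and cytokines are known to raise D cyclins and to lower p27.

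The 3 cultures of a time point were compared with the 2 resting libraries by limma on log2(RPKM + 0.5). A gene was called changed at a Benjamini-Hochberg adjusted p under 0.05 over all genes and a change of at least 2-fold. At 4 h, 1 of the 10 genes was called higher and 2 lower, against 2.61% and 7.97% of all genes. At 8 h 2 were higher and 5 lower, against 6.42% and 12.5% of all genes. At 12 h 3 were higher and 5 lower, against 10.7% and 16.4% of all genes. At 16 h 3 were higher and 4 lower, against 11.2% and 14.5% of all genes. At 20 h 3 were higher and 4 lower, against 12.9% and 16.1% of all genes. At 24 h 3 were higher and 3 lower, against 12.7% and 17.4% of all genes. All 6 comparisons share the resting libraries. The median log2 change of the 10 genes was -0.57 at 4 h, -0.77 at 8 h, -0.75 at 12 h, -0.53 at 16 h, -0.32 at 20 h and 0.10 at 24 h. The median of all genes was between -0.07 and -0.01 at each of these times. These are bulk samples, in which fewer cells with a transcript and less of it in each cell cannot be told apart.

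The purified cells carried the transcripts of T cells in every library. The 10 T cell markers summed to 2413 and 2442 RPKM in the resting libraries and to between 1527 and 2042 RPKM in the cultures, and none was at 0 in any library. The resting libraries differed from the cultures in transcripts that mark other cells. The methods of the study name lysis of red cells and a sort for naive cells in skewing experiments, and the labels of these libraries name neither step. Of 8 macrophage markers, 8 were called lower at 24 h than at rest, against 17.4% of all genes. They summed to 494 and 519 RPKM at rest, to 54.6, 30.5, 26.0, 26.6, 18.9 and 10.9 RPKM in Th0 from 4 to 24 h, to 44.3, 26.8, 22.6, 22.9, 16.2 and 12.2 RPKM in Th1, and to 75.3, 22.7, 14.2, 11.1, 9.92 and 7.72 RPKM in Th2. C1qa was the most abundant of them at rest, at 110 and 107 RPKM, and it was at 0 in 1 of the 20 libraries. Of 8 red cell markers, 8 were called lower at 24 h, against the same share of all genes. They summed to 38898 and 42449 RPKM at rest, to 34267, 28492, 8323, 2036, 611.6 and 204 RPKM in Th0, to 29411, 19345, 5350, 1965, 386 and 142 RPKM in Th1, and to 47142, 14994, 5095, 1467, 447 and 212 RPKM in Th2, with Hbb-bs the most abundant and none at 0. Both sums fell over the same hours as the changes described here, and their part in those changes was not tested. With the haemoglobin genes left out of the totals, the 10 genes gave 3, 7, 8, 8, 7 and 6 calls from 4 to 24 h, where the full table gave 3, 7, 8, 7, 7 and 6.

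Other markers were low. The 8 B cell markers summed to 72.6 and 82.6 RPKM at rest and to between 10.2 and 59.4 RPKM in the cultures, with Cd79b the most abundant, and 7 of 7 tested were called lower at 24 h. The 5 markers of CD8 T and NK cells summed to 79.4 and 80.3 RPKM at rest and to between 15.6 and 61.7 RPKM in the cultures, with Klrd1 the most abundant on average. At 24 h 3 of them (Klrd1, Klrb1c and Ncr1) were called lower. Cd8a and Cd8b1 were not called at 24 h, with log2 changes of -0.04 and -0.55. Ncr1 was at a log2 change of -1.60. Its call was lost without the Th0 cultures (-1.49), without the Th2 cultures (-1.60) and under quantile normalization (-1.24). It was also lost without the first (-1.62) or the second (-1.58) resting library. The 6 neutrophil markers summed to 13.7 and 10.9 RPKM at rest and to between 0.795 and 13.4 RPKM in the cultures, with Mpo the most abundant on average, 2 of 4 tested called lower at 24 h, and Ly6g at 0 in 18 of the 20 libraries. Of all genes, 17.4% were called lower at 24 h. The part of these cells in the results was not tested.

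Ccnd2 encodes cyclin D2, which activates Cdk4 and Cdk6. It was at 70.6 and 68.2 RPKM in the resting libraries. In Th0 it was at 48.3, 117, 232, 263, 235 and 237 RPKM from 4 to 24 h, in Th1 at 72.0, 189, 278, 249, 252 and 238 RPKM, and in Th2 at 161, 272, 282, 276, 276 and 212 RPKM. The Th0 culture at 4 h lay below both resting libraries, and the other 17 cultures lay above both. From 8 h on, all 3 cultures were above rest at every time, and Th2 had reached at 8 h the level that it held until 20 h. The log2 change against rest was 1.38 at 8 h (SE 0.35; limma, adjusted p 0.00389), 1.91 at 12 h (limma, adjusted p 0.000217) and 1.71 at 24 h (limma, adjusted p 0.000489). Without the Th1 cultures the call at 8 h was lost at a log2 change of 1.36 (limma, adjusted p 0.0516; 0.000701 to 0.0516 over the alternatives). At 4 h the log2 change was 0.25 (SE 0.35; limma, adjusted p 0.629), with the groups overlapping, and it was -0.23 without the Th2 cultures. The values of Ccnd2 correspond to whole reads, within 0.0001 of a read in each library, and those of the other 9 genes did not for any single transcript length tried. Ccnd2 had from 6704 in the Th0 culture at 4 h to 52359 reads in the Th1 culture at 12 h. Exact Poisson 95% intervals, which cover counting error alone, ran from 47.1 to 49.4 RPKM in the first of these libraries and from 276 to 281 RPKM in the second.

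Ccnd3 encodes cyclin D3, the other D cyclin studied here. It was at 152 and 151 RPKM in the resting libraries. From 4 to 24 h the Th0 cultures were at 95.7, 82.0, 72.4, 80.5, 83.4 and 79.5 RPKM, the Th1 cultures at 82.4, 66.5, 62.3, 78.9, 91.2 and 101 RPKM, and the Th2 cultures at 74.4, 52.6, 59.7, 68.9, 75.8 and 69.6 RPKM. All 18 cultures lay below both resting libraries. The log2 change was -1.19 at 8 h (SE 0.18; limma, adjusted p 4.51e-05) and -1.22 at 12 h (limma, adjusted p 2.26e-05). At 16 h it was -0.99 and at 24 h -0.87, both short of 2-fold. At 16 h the change passed 2-fold without the Th0 cultures (-1.03), without the Th1 cultures (-1.02), with haemoglobin genes left out (-1.08) and under quantile normalization (-1.28). At 24 h it passed without the Th1 cultures (-1.02) and under quantile normalization (-1.16), and at 20 h under quantile normalization (-1.17).

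In RPKM the D cyclins therefore changed places. RPKM is divided by a length of transcript that could be worked out for Ccnd2 alone, so the size of a ratio between genes carries an error of scale that was not measured, here and below. At rest the level of Ccnd3 was 2.15 and 2.21 times that of Ccnd2. At 4 h the ratio of Ccnd2 to Ccnd3 was 0.505 at the lowest and 2.17 at the highest of the 3 cultures, and at 8 h it was between 1.42 and 5.17. At 24 h the ratio was between 2.36 and 3.04. The sum of both levels was 222 and 219 RPKM at rest, between 144 and 236 RPKM at 4 h and between 281 and 339 RPKM at 24 h.

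Ccne1 encodes cyclin E1, which activates Cdk2. It was at 27.0 and 28.6 RPKM in the resting libraries. Between 4 and 24 h Th0 was at 10.1, 7.27, 4.85, 7.10, 10.4 and 18.5 RPKM, Th1 at 12.4, 6.06, 4.41, 5.57, 9.59 and 25.5 RPKM, and Th2 at 11.9, 4.01, 5.89, 7.0001, 14.2 and 21.7 RPKM. All 18 cultures lay below both resting libraries, the lowest at 8 or 12 h and the highest at 24 h in each condition. Against rest, the log2 change was -1.25 at 4 h (SE 0.21; limma, adjusted p 0.000305), -2.36 at 12 h (limma, adjusted p 1.34e-07) and -1.27 at 20 h (limma, adjusted p 8.38e-05). At 24 h it was -0.35 (limma, adjusted p 0.16), a difference that was not called. From 4 to 24 h of culture Ccne1 rose by a log2 change of 0.90 (SE 0.19; limma, adjusted p 0.000613), higher in 3 of 3 conditions and short of 2-fold.

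Ccne2 encodes cyclin E2, the second partner of Cdk2 of this kind. It was at 23.3 and 21.5 RPKM in the resting libraries. In Th0 it was at 6.76, 4.51, 2.12, 2.12, 2.12 and 8.56 RPKM from 4 to 24 h, in Th1 at 8.32, 3.64, 1.93, 2.03, 2.72 and 8.60 RPKM, and in Th2 at 7.94, 4.01, 2.52, 2.08, 4.69 and 17.6 RPKM. All 18 cultures lay below both resting libraries, and the Th2 culture at 24 h came nearest to them. The log2 change was -1.49 at 4 h (SE 0.27; limma, adjusted p 0.000505), -3.09 at 12 h (limma, adjusted p 8.9e-08) and -3.15 at 16 h (limma, adjusted p 6.76e-08). At 24 h it was -1.0002 (limma, adjusted p 0.00399), just past 2-fold. That call was lost in 7 of 15 alternatives: without the Th0 cultures (-0.83), without the Th1 cultures (-0.84), without the first resting library (-0.94), under median-of-ratios (-0.86), upper-quartile (-0.94) or quantile (-0.93) normalization, and with a pseudocount of 1 (-0.97). From 4 to 24 h the log2 change was 0.49 (SE 0.24; limma, adjusted p 0.085), higher in 3 of 3 conditions and not called.

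**Figure D1:**
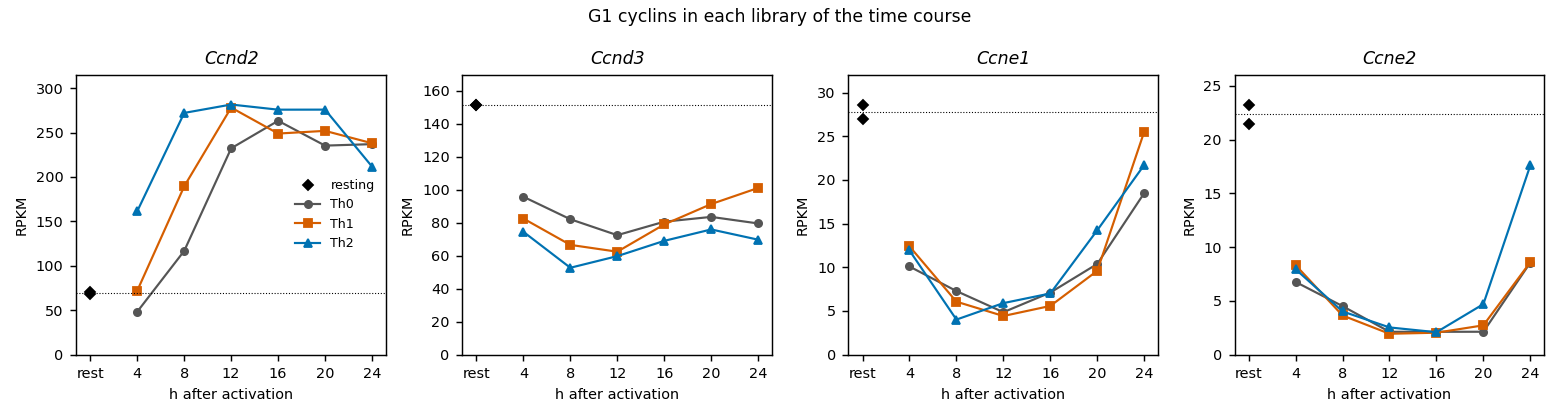
Levels of the 4 cyclin genes in RPKM on linear axes against hours of culture, with the 2 resting libraries at the left as diamonds, a dotted line at their mean, and 1 point for each culture library of Th0, Th1 and Th2. Ccnd2 rose to between 212 and 238 RPKM at 24 h in all 3 conditions, Ccnd3 lay below rest in all 18 cultures, and Ccne1 and Ccne2 fell to lows of 4.01 and 1.93 RPKM before they rose again by 24 h.

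Lists of genes of DNA replication and mitosis were set beside the cyclins. Of 18 genes of S phase entry, 10 were called lower at 8 h, against 12.5% of all genes. At 24 h 9 were higher and 3 lower, against 12.7% and 17.4% of all genes. Their median log2 change at 24 h was 1.05 against -0.04 over all genes. Mcm7, a subunit of the replicative helicase, averaged 103 RPKM at rest, 63.8 RPKM at 12 h and 242 RPKM at 24 h. Its log2 change at 24 h, 1.22, was 0.97 and short of 2-fold under quantile normalization. All 10 mitosis genes were called lower at 12 h, against 16.4% of all genes, with a median log2 change of -2.85 against -0.07. At 24 h 5 were called lower, against 17.4% of all genes. The mitosis genes summed to 347 and 336 RPKM at rest, to 147, 102, 45.5, 42.7, 78.7 and 155 RPKM in Th0 from 4 to 24 h, to 148, 80.1, 38.1, 44.7, 81.2 and 181 RPKM in Th1, and to 169, 63.1, 44.2, 54.5, 101 and 231 RPKM in Th2. Mki67 was the most abundant of them at rest, at 94.0 and 91.8 RPKM, and none was at 0. The resting libraries thus held more mitotic transcript than any culture, as they did for Ccne1 and Ccne2. Its part in the falls of Ccne1 and Ccne2 was not tested.

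Cdk4 encodes a kinase that D cyclins activate. It was at 75.3 and 86.8 RPKM in the resting libraries. From 4 to 24 h the Th0 cultures were at 60.1, 96.1, 182, 216, 254 and 242 RPKM, the Th1 cultures at 58.5, 151, 208, 209, 260.2 and 255 RPKM, and the Th2 cultures at 94.2, 203, 236, 263, 284 and 288 RPKM. At 4 h Th0 and Th1 lay below rest and Th2 above it, and from 8 h on all cultures lay above rest. Against rest, the log2 change was 0.82 at 8 h, 1.35 at 12 h (SE 0.24; limma, adjusted p 0.000169), 1.71 at 20 h (limma, adjusted p 1.8e-05) and 1.68 at 24 h (limma, adjusted p 1.83e-05). The change at 8 h was short of 2-fold except without the Th0 cultures, where it was 1.11.

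Cdk6 encodes the other kinase of the D cyclins. It was at 4.39 and 4.37 RPKM in the resting libraries. Between 4 and 24 h Th0 was at 2.42, 2.62, 3.54, 7.86, 7.46 and 7.86 RPKM, Th1 at 1.67, 3.48, 5.85, 7.42, 8.41 and 7.79 RPKM, and Th2 at 2.83, 4.41, 5.78, 10.9, 11.8 and 9.67 RPKM. All 3 cultures lay below rest at 4 h and above it from 16 h on, and the groups overlapped at 8 and 12 h. No change against rest reached 2-fold, the nearest being 0.97 at 20 h (SE 0.25; limma, adjusted p 0.00313). It passed 2-fold at 20 h without the Th0 cultures (1.10), without the Th1 cultures (1.02), with a pseudocount of 0.1 (1.03), and under median-of-ratios (1.05) or quantile (1.43) normalization. At 16 h it passed without the Th1 cultures, at 1.0005, and under quantile normalization, at 1.36; at 24 h it passed under quantile normalization, at 1.38. At 8 h its log2 change of -0.31 became 0.18 under quantile normalization. The level of Cdk4 was 17.1 and 19.9 times that of Cdk6 at rest and between 29.8 and 32.7 times at 24 h.

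Cdk2 encodes the kinase that cyclin E activates. It was at 24.1 and 24.99 RPKM in the resting libraries. In Th0 it was at 23.5, 19.6, 21.3, 21.6, 27.0 and 34.1 RPKM from 4 to 24 h, in Th1 at 21.4, 17.1, 18.4, 21.7, 27.2 and 37.3 RPKM, and in Th2 at 20.9, 19.6, 20.9, 27.3, 32.0 and 37.7 RPKM. All cultures lay below rest from 4 to 12 h and above it at 20 and 24 h, within a narrow range. It was called at none of the 6 times by limma, and its unadjusted p was under 0.05 at 3 of them. The log2 change was 0.56 at 24 h (SE 0.12; limma, adjusted p 0.000838), short of 2-fold. Within the cultures Cdk2 rose from 4 to 24 h by a log2 change of 0.72 (SE 0.11; limma, adjusted p 3.13e-05), higher in 3 of 3 conditions and short of 2-fold.

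**Figure D2:**
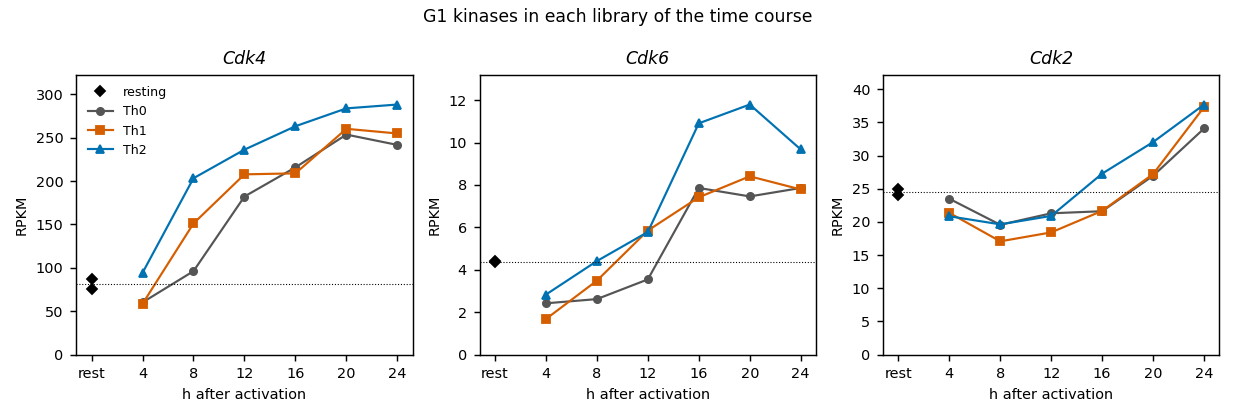
Levels of the 3 kinase genes in RPKM on linear axes against hours of culture, with the 2 resting libraries at the left as diamonds, a dotted line at their mean, and 1 point for each culture library of Th0, Th1 and Th2. Cdk4 reached between 242 and 288 RPKM at 24 h, with Th2 the highest at all 6 times, while Cdk6 stayed at or under 11.8 RPKM and Cdk2 between 17.1 and 37.7 RPKM.

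Promoter sequences from RefSeq, of mouse genome build GRCm38.p6, were searched for letters bound by factors known to act on cell cycle genes, from 250 bases before to 50 bases after each start site. Of the 10 genes, 8 were matched, with 11 windows; Ccnd2 and Ccne2 were missing. The letters searched on both strands were an E-box (CACGTG), 4 forms of an E2F motif (TTTCCCGC, TTTCGCGC, TTTGCCGC and TTTGGCGC) and a FoxO motif (GTAAACA), none of which overlapped another in the windows shown. Of 32851 promoter windows of all genes, 7.15% held the E-box, 2.26% an E2F form and 3.65% the FoxO motif. Cdk4 held 4 E-boxes before its start site, Cdk6 held 1 E-box, Cdk2 held 1 E2F form, and 1 of the 2 windows of Ccnd3 held the FoxO motif. Cdkn2c held 1 E-box after a start site, and Ccne1, Cdkn1a and Cdkn1b held none of these letters. The stretches of the kinases and of Ccnd3 are shown because they are those with a whole match before a start site, whatever the course of the gene. They are chr10:127063351-127063534 on the plus strand for Cdk4, chr5:3343661-3343690 on the plus strand for Cdk6, chr10:128705172-128705203 on the minus strand for Cdk2 and chr17:47504801-47504826 on the plus strand for Ccnd3, each read 5′ to 3′ on the strand of the gene. Capitals mark the letters matched, which for Cdk2 and Ccnd3 are the reverse complement of the letters given. A match describes these letters and is neither a site nor a cause.
Cdk4: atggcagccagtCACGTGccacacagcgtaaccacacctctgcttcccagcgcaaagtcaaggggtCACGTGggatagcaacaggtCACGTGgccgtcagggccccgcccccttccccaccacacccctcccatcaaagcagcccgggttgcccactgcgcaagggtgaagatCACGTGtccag
Cdk6: gttctgcggcccCACGTGggtgaacccccg
Cdk2: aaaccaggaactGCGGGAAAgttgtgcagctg
Ccnd3: ggtctacTGTTTACttcctgggcagc

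Cdkn1a encodes p21, an inhibitor of cyclin complexes. It was at 1.201 and 2.37 RPKM in the resting libraries. From 4 to 24 h the Th0 cultures were at 15.2, 23.9, 36.1, 23.7, 20.5 and 14.6 RPKM, the Th1 cultures at 26.5, 49.1, 47.0, 29.0, 23.3 and 17.8 RPKM, and the Th2 cultures at 27.0, 48.0, 43.5, 25.9, 16.5 and 11.5 RPKM. All 18 cultures lay above both resting libraries, with the highest level at 8 or 12 h and the lowest at 24 h in each condition. Against rest, the log2 change was 3.36 at 4 h (SE 0.31; limma, adjusted p 5.89e-07), 4.26 at 12 h (limma, adjusted p 7.95e-09) and 2.75 at 24 h (limma, adjusted p 1.41e-06). It was the only one of the 10 genes called higher at 4 h, in all 15 alternatives. The resting libraries differed from each other by 0.75 in log2 for Cdkn1a, where the SD of that difference over all 10897 genes was 0.18. Among 12 other target genes of p53, a factor that can induce Cdkn1a, 2 were called higher at 4 h (Bax and Phlda3), against 2.61% of all genes. The median log2 change of the 12 was 0.67 at 4 h, against -0.04 over all genes. At 24 h 3 of these were higher and 4 lower, against 12.7% and 17.4% of all genes, with a median of -0.20.

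Cdkn1b encodes p27, the other inhibitor of this family. It was at 97.4 and 93.2 RPKM in the resting libraries. Between 4 and 24 h Th0 was at 89.1, 76.0, 45.3, 34.1, 28.9 and 21.3 RPKM, Th1 at 86.4, 43.1, 27.8, 35.6, 21.6 and 15.2 RPKM, and Th2 at 58.7, 23.7, 18.5, 17.0, 13.2 and 11.9 RPKM. All 18 cultures lay below both resting libraries, and the lowest level in each condition was at 24 h. The log2 change was -1.72 at 12 h (SE 0.46; limma, adjusted p 0.00371) and -2.57 at 24 h (limma, adjusted p 0.000126). At 8 h it was -1.15 (limma, adjusted p 0.0447), and that call was lost in 8 of 15 alternatives (limma, adjusted p from 0.00611 to 0.165 over all 15). Among these were leaving out the Th1 cultures (-1.15), the Th2 cultures (-0.73), the first resting library (-1.12) and the second resting library (-1.18). At rest the level of Cdkn1b was 39.4 and 81.1 times that of Cdkn1a, and at 24 h it was between 0.851 and 1.46 times that level.

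Cdkn2c encodes p18, which inhibits Cdk4 and Cdk6. It was at 12.5 and 13.0 RPKM in the resting libraries. In Th0 it was at 7.37, 4.06, 1.68, 1.22, 2.35 and 1.97 RPKM from 4 to 24 h, in Th1 at 5.96, 3.44, 1.11, 1.61, 1.78 and 2.82 RPKM, and in Th2 at 6.89, 3.202, 1.56, 2.31, 1.87 and 2.42 RPKM. All 18 cultures lay below both resting libraries. Against rest, the log2 change was -0.88 at 4 h, short of 2-fold, -1.71 at 8 h (SE 0.20; limma, adjusted p 3.82e-06), -2.77 at 12 h (limma, adjusted p 6.93e-09) and -2.20 at 24 h (limma, adjusted p 1.12e-07).

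**Figure D3:**
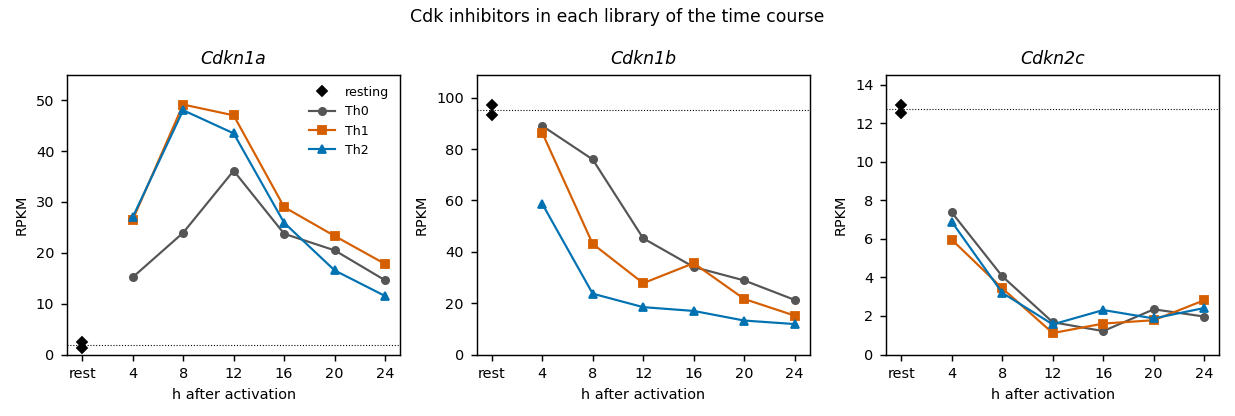
Levels of the 3 inhibitor genes in RPKM on linear axes against hours of culture, with the 2 resting libraries at the left as diamonds, a dotted line at their mean, and 1 point for each culture library of Th0, Th1 and Th2. Cdkn1a lay above rest in all 18 cultures with highs of 36.1 to 49.1 RPKM, and Cdkn1b and Cdkn2c lay below rest in all 18.

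Changes between 4 and 24 h leave out the resting libraries. Of the 10 genes, limma called 3 higher at 24 h than at 4 h, against 13.0% of all genes, and 2 lower, against 13.2% of all genes. Those called higher were Cdk4 at a log2 change of 1.91 (SE 0.22; limma, adjusted p 1.97e-06), Cdk6 at 1.69 (SE 0.23; limma, adjusted p 8.88e-06) and Ccnd2 at 1.46 (SE 0.32; limma, adjusted p 0.000706). Each was higher at 24 h in 3 of 3 conditions. Those called lower were Cdkn1b at -2.26 (SE 0.41; limma, adjusted p 0.000148) and Cdkn2c at -1.33 (SE 0.18; limma, adjusted p 9.09e-06), each lower in 3 of 3 conditions. Transcripts of both D cyclin kinases and of cyclin D2 thus rose within the cultures, while those of p27 and p18 fell. Cdkn1a fell by 0.60 in log2 (limma, adjusted p 0.0637) and was not called, and Ccnd3 changed by -0.02. The median log2 change of the 10 genes was 0.60, against -0.01 over all genes.

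Of 16 other G1 regulators, 12 passed the filter. From 4 to 24 h 4 of them (Skp1a, Cks1b, Cdc25a and Mnat1) were called higher and 1 (Cdkn2d) lower, against 13.0% and 13.2% of all genes. Skp1a rose by a log2 change of 1.02 (SE 0.12). The rise was less than 2-fold without the Th0 cultures (0.87), with haemoglobin genes left out (0.93) and under quantile normalization (0.82). Skp2, of the same list, was called lower than rest at 8 h (-1.01; limma, adjusted p 9.35e-05) and was not called from 4 to 24 h (0.64). Cdkn2d, which encodes p19 of the same family as p18, averaged 53.7 RPKM at rest, 23.9 RPKM at 4 h and 6.91 RPKM at 24 h. Cdkn2d was called lower than rest at all 6 times, so that both p18 and p19 transcripts fell.

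Scaling moved the reference that these changes are measured from. Under quantile normalization the median of all genes against rest moved by 0.11, 0.14, 0.17, 0.13, 0.13 and 0.17 in log2 from 4 to 24 h. Under median-of-ratios scaling it moved by 0.11 at 8 h, 0.12 at 12 h and 0.14 at 24 h. Among all genes called, the share called higher went from 24.7% to 43.5% at 4 h, from 34.0% to 49.3% at 8 h, from 39.4% to 53.3% at 12 h, from 43.6% to 54.3% at 16 h and from 42.3% to 54.0% at 24 h under quantile normalization. The calls of Ccnd2 from 8 h on, Cdk4 from 12 h on, Ccne1 and Ccne2 up to 20 h, Cdkn1a at all times and Cdkn2c from 8 h on were made under every scaling.

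The comparison of conditions asks whether these genes differed with skewing. Each condition had 1 library at each time, so the 6 times stand in for replicates of 1 series of cultures. Between Th2 and Th0, limma called 1 of the 10 genes, Cdkn1b, which was lower in Th2, against 1.83% of all 10737 genes tested. Cdkn1b in Th2 was 0.659, 0.312, 0.408, 0.498, 0.459 and 0.558 times its level in Th0 from 4 to 24 h. It was thus lower at 6 of 6 times, with a log2 difference of -1.07 (SE 0.12; limma, adjusted p 1.04e-05). Without the 8 h cultures the difference was -0.95, short of 2-fold (limma, adjusted p 3.79e-05; 1.02e-05 to 0.000439 over the alternatives), so that Cdkn1b was not called.

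In the mean over the 6 times, the other 9 genes differed by less than 2-fold between Th2 and Th0. In this comparison 6 of the 10 genes, and 4423 of all 10737, had an unadjusted p under 0.05 by limma, so small p-values were common among all genes. Cdk4 was highest in Th2 at 6 of 6 times, with a log2 difference of 0.47 (SE 0.10; limma, adjusted p 0.00415). Ccnd3 was lowest in Th2 at 6 of 6 times, with a difference of -0.30 (SE 0.08; limma, adjusted p 0.0132). Cdk6 was higher in Th2 than in Th0 at 6 of 6 times, with a difference of 0.47 (SE 0.11; limma, adjusted p 0.00571). With quantile normalization as well as with median-of-ratios scaling, Th2 was lowest for Cdkn1b and Ccnd3 and highest for Cdk4 at 6 of 6 times. Ccnd2 in Th2 was 3.35, 2.33, 1.21, 1.05, 1.17 and 0.893 times its level in Th0 from 4 to 24 h, with a mean log2 difference of 0.56 (SE 0.18; limma, adjusted p 0.0321). The lead of Th2 in Ccnd2 was thus widest at 4 and 8 h and was gone at 24 h. Over the alternatives its mean difference ran from 0.10 to 0.70 (limma, adjusted p from 0.0149 to 0.436). Ccne2 in Th2 was 1.18, 0.891, 1.19, 0.982, 2.21 and 2.06 times its Th0 level, and its difference over all times was not called (0.37; limma, adjusted p 0.0651). Whether the differences between conditions changed with time was not tested.

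Between Th2 and Th1, limma called 0 of the 10 genes, against 1.96% of all genes; 5 of the 10, and 2718 of all 10737, had an unadjusted p under 0.05. Cdkn1b was lower in Th2 than in Th1 at 6 of 6 times, by -0.68 in log2 (SE 0.12; limma, adjusted p 0.000965), short of 2-fold. Between Th1 and Th0, limma called 0 of the 10 genes, against 0.494% of all genes; 2 of the 10, and 1757 of all, had an unadjusted p under 0.05. These were Cdkn1a, higher in Th1 at 6 of 6 times (0.49; limma, adjusted p 0.0962), and Cdkn1b, lower in Th1 at 5 of 6 times (-0.40; limma, adjusted p 0.11). Over the 3 comparisons, which share cultures, Cdkn1b was thus in the order Th0, Th1, Th2 from high to low, except at 16 h, where Th1 lay above Th0.

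**Figure D4:**
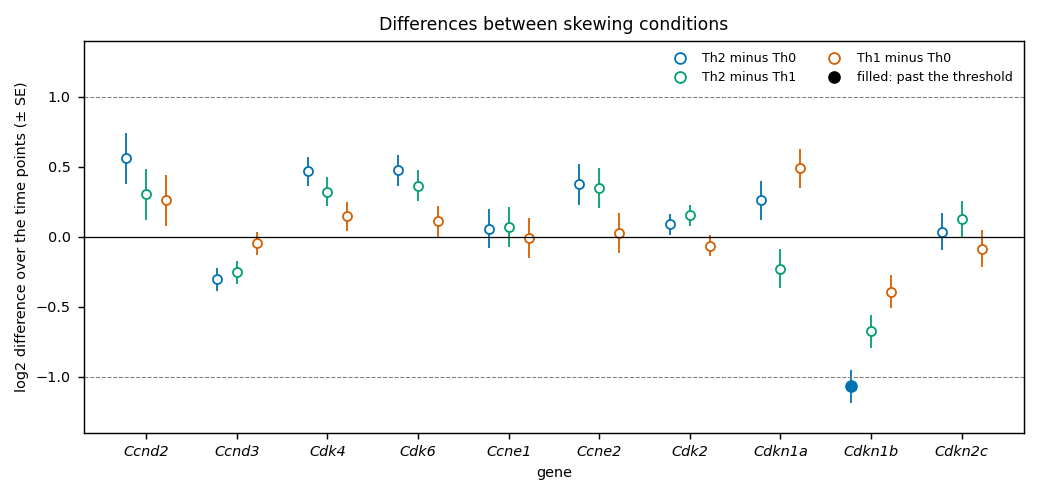
Log2 differences of the 10 genes (horizontal axis) between Th2 and Th0, Th2 and Th1, and Th1 and Th0, each a limma mean over the 6 times with its SE as a bar, open where not called and filled where called, with dashed lines at 2-fold. Cdkn1b between Th2 and Th0, at -1.07, is the single filled point, and Ccnd2, Cdk4 and Cdk6 lie at 0.56, 0.47 and 0.47 in that comparison.

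A list of FoxO factors, which induce Cdkn1b, and of genes known from FoxO action or from quiescent cells was set beside Cdkn1b. Of its 12 genes, 12 were called lower at 24 h than at rest, against 17.4% of all genes. Their median log2 change was -2.22 against -0.04 over all genes. Between Th2 and Th0, 6 were called lower in Th2, against 1.83% of all genes. Klf2, which was called in both comparisons, was at 158 and 185 RPKM at rest, and at 24 h the Th0, Th1 and Th2 cultures had 24.9, 16.3 and 9.67 RPKM. Of 7 tested genes of mitogen and cytokine signals, 5 were called higher at 24 h than at rest, against 12.7% of all genes, with a median of 2.58. Myc, a factor that binds E-boxes, was at 40.3 and 43.9 RPKM at rest, and at 4 h the Th0, Th1 and Th2 cultures had 52.2, 73.1 and 157 RPKM of it. Against rest, Myc was not called at 4 h (limma, adjusted p 0.0723) and was called higher at each later time, with a log2 change of 2.58 at 24 h (limma, adjusted p 4.29e-05). It was not called between Th2 and Th0 over all times (limma, adjusted p 0.0681). Of 6 genes that mark skewing, Tbx21 and Il12rb2 were called lower in Th2 than in Th0, against 1.83% of all genes. The others were not called, with log2 differences of 0.66 for Ifng, 0.66 for Gata3, 0.29 for Il4 and -0.15 for Il4ra.

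For 9 of the genes, the 3 others with the most similar course are given, found by Pearson correlation of log2(RPKM + 0.5) over the 20 libraries, which share the time points and the resting pair, as a description. Ccnd2 was most like Grwd1 (0.990), Tsr1 and Pus7, and Cdk4 was most like Mrpl36 (0.993), Pycrl and Eif3i. Ccne1 was most like Kntc1 (0.978), Ncapg2 and Clspn, Ccne2 was most like Kif2c (0.980), Kif11 and Kif20a, and Cdk2 was most like Rfc5 (0.968), Pola2 and Rfc2. Cdk6 was most like Gstt2 (0.966), Lag3 and Ndufa10, and Ccnd3 was most like Arhgap9 (0.970), Zmynd8 and Irf2bpl. Cdkn1a was most like Pdcd1 (0.982), Sema7a and Hif1a, and Cdkn1b was most like Tcp11l2 (0.991), Sun2 and Lgals8. Among the 10 genes themselves the highest correlation was 0.93, of Ccnd2 with Cdk4, and the lowest was -0.93, of Cdk4 with Cdkn1b.

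The actinomycin libraries ask how fast each transcript fell, relative to all mapped reads, once transcription was blocked. Cdkn1a was at 17.4, 16.6, 8.67 and 5.36 RPKM after 0, 1, 2 and 4 h, and Ccnd2 was at 257, 217, 169 and 145 RPKM. Only these 2 of the 10 genes fell at each step. Cdkn1a was 3.25 times as high at 0 h as at 4 h, and its slope was -0.44 in log2 per hour (SE 0.07; limma, adjusted p 1.57e-07). It was the 1 gene of the 10 that was called with a falling slope, against 5.58% of all 10571 genes tested, where a call needs a fitted change of 2-fold over the 4 h. An exact permutation of the 4 times over the libraries gave a two-sided p of 0.0417, the smallest that 24 orders can give. The slope of Ccnd2 was -0.21 (SE 0.06; limma, adjusted p 0.00358), under 2-fold over the 4 h, with an exact two-sided p of 0.0833. Under quantile and upper-quartile normalization the exact p of Cdkn1a was 0.0833, and under median-of-ratios and upper-quartile scaling that of Ccnd2 was 0.0417. For the other 8 genes the exact two-sided p was 0.167 or more, and the 10 tests were run on the same 4 libraries. Of all genes, 1010 had a slope that was called, 656 without the library at 0 h and 535 without the library at 4 h, while Cdkn1a was called in all 13 alternatives.

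Among the other 8 genes, Cdk4 was at 259, 277, 312 and 301 RPKM and Cdkn1b at 21.7, 16.9, 18.8 and 24.7 RPKM over the 4 times. Neither fell over the whole 4 h relative to all reads. Ccnd3 was at 58.8, 48.5, 52.1 and 66.9 RPKM, and so the D cyclins differed in course after actinomycin; this difference was not tested. The library at 0 h can be set beside the cultures at 16 h. It lay inside the range of those 3 cultures for Ccnd2, Cdk4 and Cdkn1b and outside it for the other 7 genes, as for Ccne2, at 4.22 RPKM against 2.03 to 2.12 RPKM. The skewing condition of the actinomycin libraries is not given, and each time had 1 library.

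**Figure D5:**
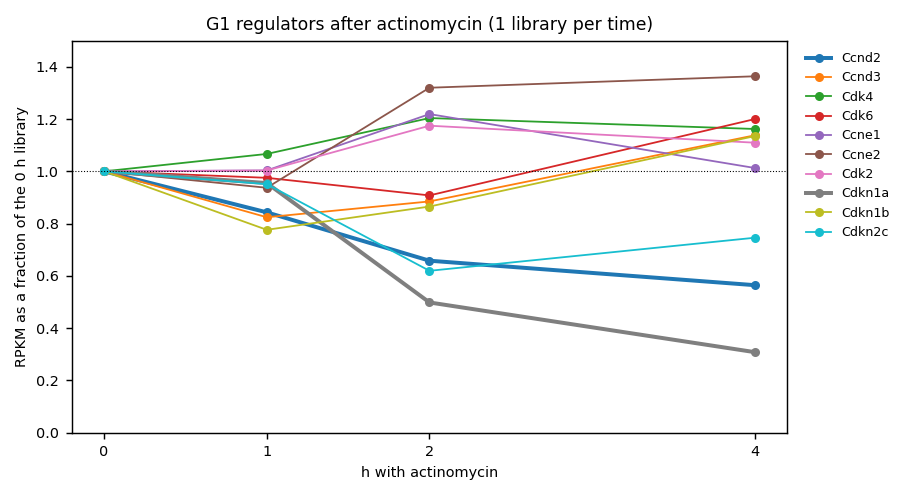
RPKM of the 10 genes as a fraction of the library at 0 h, on a linear axis, against hours with actinomycin, with 1 point for each of the 4 libraries, lines joining them and a dotted line at 1. Cdkn1a fell to 0.308 and Ccnd2 to 0.564 of the level at 0 h, while the other 8 genes ended between 0.746 and 1.36.

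The genes lie on chromosomes 4, 5, 6, 7, 10 and 17 of GRCm38, with Ccnd2 at chr6:127125162-127152193 and Cdkn1b at chr6:134920401-134925513. Exons of 7 of the 10 genes overlap exons on the opposite strand, and the strand of the libraries is not given. The largest overlaps were those of Cdk4 with Tspan31, over 641 of 3249 exon bases, and of Ccne2 with Ints8, over 609 of 3495 exon bases, so some reads of these genes may belong to the neighbour. Exons of Ccne1, Cdkn1b and Cdkn2c overlap no other gene.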

How the data were processed

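The authors aligned reads with BWA to GRCm38 and deposited RPKM for each gene; the strand and the counting tool are not given. The deposited values were used as they are, without the 1 entry that has no gene name. limma 3.58.1 (R 4.3.3) was fitted with a mean-variance trend to log2(RPKM + 0.5) of all genes whose mean over the libraries fitted was 1 RPKM or more. The added 0.5 understates the change of low genes. Mapped reads were worked out from the step between values, which 447 of 765 genes gave. Locations came from GENCODE M21. All 10 genes were named, with some genes of the lists and the 3 most alike for 9 of the 10 genes. Not all called genes of the lists were named. The members and lists were chosen with earlier results of these data known. Alternatives included pseudocounts of 0.1 and 1, no filter or 5 RPKM, 3 other scalings and haemoglobin genes left out. Others left out each resting library, condition or time, fitted only the libraries compared, or used only the cultures from 12 to 24 h. Each culture was sequenced once, so p-values reflect the spread between libraries, and cultures of the 3 conditions stand in for replicates of a time. The code was tested on simulated data.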

Additional observations from a re-analysis of the deposited data

How the results depend on the processing

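Of 334 alternatives of the counts of called genes, 327 stayed within 1.5 times the count given. The exceptions were a mean of at least 5 RPKM, with 646 genes changed at 4 h, 1334 at 8 h and 665 with a slope after actinomycin, where fewer genes were tested; no filter, with 531 genes with a slope; leaving out the actinomycin library at 0 h or at 4 h, with 656 and 535 genes with a slope, against 1007 without that at 2 h, which is no exception; and leaving out the 8 h cultures, with 0 of the 10 genes between Th2 and Th0. Of 60 orders of the conditions, 10 changed with median-of-ratios scaling and 6 with quantile normalization; the cause was not tested. Of 1658 alternatives of the log2 changes of the 10 genes, 1598 left direction and call as they were, 17 lost a call, 16 gained one and 27 changed sign. The sign changes were all in differences that were not called, and their cause was not tested. With median-of-ratios scaling they were Ccnd3 from 4 to 24 h at 0.042, Ccne1 between Th1 and Th0 at 0.0085, the slope of Ccne1, fitted or permuted, at -0.0014, and Cdk2 at 16 h at 0.0040. With quantile normalization they were Ccne1 between Th1 and Th0 at 0.030 and Cdk6 at 8 h at 0.18, and with upper-quartile scaling Ccne1 between Th1 and Th0 at 0.0017. From 12 to 24 h alone, Ccnd3 between Th1 and Th0 was at 0.057 and Cdkn1a between Th2 and Th0 at -0.061. Leaving out 1 library, condition or time gave -0.23 to 0.63 for Ccnd2 at 4 h and -0.18 to 0.10 for Ccnd3 from 4 to 24 h. Between Th1 and Th0 it gave -0.13 to 0.0029 for Ccnd3, -0.10 to 0.052 for Ccne1 and -0.028 to 0.086 for Ccne2. Between Th2 and Th0 it gave -0.019 to 0.23 for Ccne1 and -0.10 to 0.10 for Cdkn2c, and between Th2 and Th1 -0.028 to 0.19 for Ccne1. Slopes went from -0.088 to 0.16 for Ccnd3, -0.014 to 0.14 for Ccne1, -0.065 to 0.11 for Cdk6 and -0.10 to 0.18 for Cdkn1b. A filter of 5 RPKM left Cdkn2c untested. Depth limits most the lowest levels, which were 1.11 RPKM for Cdkn2c in Th1 at 12 h and 1.201 RPKM for Cdkn1a in a resting library. Leaving out 1 resting library leaves a single library, assumed to vary like the other groups.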
